A study of Mus musculus with 5 samples.

Results

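The oligodendrocyte lineage genes were read in RNA-Seq libraries of mouse neural stem/progenitor cells (NSPCs) kept under proliferation conditions. The set holds 9 genes, taken by symbol and in order of role: the transcription factors *Olig1*, *Olig2*, *Sox10* and *Nkx2-2*, the progenitor surface genes *Pdgfra* and *Cspg4*, the receptor gene *Gpr17*, and the myelin genes *Cnp* and *Mbp*. Of these, 7 had a line in the deposited table, with 8 transcripts out of 22227, and the table held 12588 genes in all. *Sox10* and *Mbp* had no line in the table as used here, whose lowest listed mean is 9.34, and no value is given for them.

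The libraries came from C57BL/6J mice, with 2 labelled WT (p75NTR+/+ littermates, replicates 1 and 4) and 3 labelled p75NTR-/- (replicates 1, 2 and 4). The p75NTR-/- line is a constitutive knockout of the p75 neurotrophin receptor gene *Ngfr* that removes only a part of the gene. The labels describe cells of E12.5 embryos, whereas the methods of the study describe cells of the adult subventricular zone, and nothing in the table decides between them. Cells of both labels grew without treatment in 20 ng/ml FGF-2, 20 ng/ml EGF and, per the labels, B-27 without vitamin A, whereas the methods give B-27 with vitamin A, and 500 ng RNA entered each library. Between 11688211 and 14452396 counts were recovered per library, and normalized counts, which are counts divided by the size factor of the library, are given in the order of the replicate numbers, 1 and 4 for WT and 1, 2 and 4 for p75NTR-/-.

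*Ngfr* went against the labels. Its transcript had 0.98 and 2.08 normalized counts under the WT label and 9.89, 141 and 251 under the p75NTR-/- label. The deletion leaves other exons in place, so reads of them could still be counted in p75NTR-/- cells, but the libraries labelled WT, in which the gene should be whole, had nearly no reads. Every direction given here is therefore a direction between libraries as labelled.

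Oligodendrocytes, the myelin-forming cells of the central nervous system, arise from neural progenitors through a series of stages. *Olig1* and *Olig2* encode basic helix-loop-helix factors, and *Olig2* is required to specify the lineage. *Nkx2-2* encodes a homeodomain factor and *Sox10* an HMG-box factor, both of which act in the further differentiation. Oligodendrocyte progenitors carry on their surface the PDGF receptor alpha (*Pdgfra*), which receives the mitogen PDGF-A, and the proteoglycan NG2 (*Cspg4*). *Gpr17* encodes a G protein-coupled receptor of committed, premyelinating cells, and *Cnp* and *Mbp* encode proteins of myelin-forming cells. *Olig2* is also found in cultured NSPCs grown with FGF-2 and EGF.

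Promoter sequence is shown for 4 genes that differ in how they varied across the libraries: *Olig2* and *Cspg4*, which were lowest in the libraries numbered 4, and *Nkx2-2* and *Cnp*, which were not. The sequences are from RefSeq (GRCm38.p6), whose promoter table matched 5 of the 9 genes by symbol, and each is cut before the first listed transcript start. Capitals mark the E-box CANNTG, the letters that basic helix-loop-helix factors such as the Olig proteins bind, searched on both strands.
Olig2 (chr16:91225300-91225456, plus strand): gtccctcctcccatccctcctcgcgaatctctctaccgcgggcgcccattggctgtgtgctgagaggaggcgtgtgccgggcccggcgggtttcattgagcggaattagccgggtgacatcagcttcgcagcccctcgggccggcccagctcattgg
Cspg4 (chr9:56864854-56865032, plus strand): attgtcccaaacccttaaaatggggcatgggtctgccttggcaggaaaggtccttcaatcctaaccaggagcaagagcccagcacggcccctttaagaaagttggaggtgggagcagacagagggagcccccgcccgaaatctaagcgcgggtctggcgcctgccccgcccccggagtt
Nkx2-2 (chr2:147186405-147186652, minus strand): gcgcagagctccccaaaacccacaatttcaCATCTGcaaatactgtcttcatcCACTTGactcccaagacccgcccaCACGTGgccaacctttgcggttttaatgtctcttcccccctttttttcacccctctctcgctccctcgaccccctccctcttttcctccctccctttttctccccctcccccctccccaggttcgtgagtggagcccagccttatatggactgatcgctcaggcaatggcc
Cnp (chr11:100574689-100574903, plus strand): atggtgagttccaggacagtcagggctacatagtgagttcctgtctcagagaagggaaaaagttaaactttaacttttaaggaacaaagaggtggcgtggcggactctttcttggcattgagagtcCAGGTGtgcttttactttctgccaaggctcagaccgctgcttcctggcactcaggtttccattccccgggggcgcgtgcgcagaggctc

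The E-box occurred 3 times in the *Nkx2-2* window of 300 bases, 2 times in that of *Pdgfra*, 1 time in that of *Cnp* and 0 times in those of *Olig2* and *Cspg4*. Of all 32851 RefSeq promoter windows of this length, 72.3% held the E-box. A match describes the letters only.

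In TPM, the abundance of a transcript per length and scaled to the total of its library, the genes fell into a high and a low group. *Olig1* had the highest mean, 411 TPM, and ranged from 237 to 642 TPM over the 5 libraries. *Olig2* had a mean of 188 TPM with a range of 101 to 297 TPM, and *Cnp* had a mean of 92.5 TPM with a range of 49.8 to 153 TPM. The libraries thus carried RNA of both Olig factors in amounts above those of most listed genes, since *Olig1* stood at the 96.8th and *Olig2* at the 93.6th percentile of the mean TPM of all genes. The other genes were far lower, from *Nkx2-2* with a mean of 8.72 TPM over *Cspg4* with 3.51 TPM and *Gpr17* with 1.09 TPM to *Pdgfra* with 0.8 TPM. The receptor that is commonly used to mark oligodendrocyte progenitors was the lowest of the listed set on this scale. These levels cover listed transcripts only. They were 1 of 9 annotated transcripts for *Pdgfra*, 1 of 4 for *Cspg4* and for *Cnp*, and 2 of 4 for *Nkx2-2*. For *Olig1*, *Olig2* and *Gpr17* they were 1 of 1.

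*Olig1* was above *Olig2*, and *Olig2* above *Cnp*, in 5 of 5 libraries, although the ranges of these neighbours overlapped across libraries. The lowest *Cnp* value of 49.8 TPM and the highest *Nkx2-2* value of 12.3 TPM left a gap between the high and the low group. At the bottom of the order *Gpr17* was above *Pdgfra* in only 3 of 5 libraries, so these neighbours do not differ beyond their spread.

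The order depended on the scale. When normalized counts were divided by the length of the longest listed transcript instead, *Cnp* came first with a mean of 960 normalized counts per kilobase, ahead of *Olig1* with 907 and *Olig2* with 504.1, and 0 of 7 genes kept their rank. On this scale *Cnp* exceeded *Olig1* in 3 of 5 libraries, so their order was not the same in each. Both Olig genes had few counts for their TPM. For each TPM and kilobase *Olig1* had 2.21 and *Olig2* 2.68 normalized counts, at the 6.67th and 8.8th percentiles of 18505 listed transcripts, against a median of 9.91. *Gpr17* with 3.81 and the longer *Nkx2-2* transcript with 3.19 were also low, at percentiles 14.2 and 11.1. The shorter *Nkx2-2* transcript had 7.06, at percentile 32.9. *Cnp* had 10.4, close to that median, and *Cspg4* had 17.5, at the 88.6th percentile. The GC content of the transcripts was 61.1% for *Olig1*, 58.5% for *Olig2*, 55.8% for *Cnp* and 59.2% for *Cspg4*, against a median of 50.7%, and its part in the gap between the scales was not tested.

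**Figure D1:**
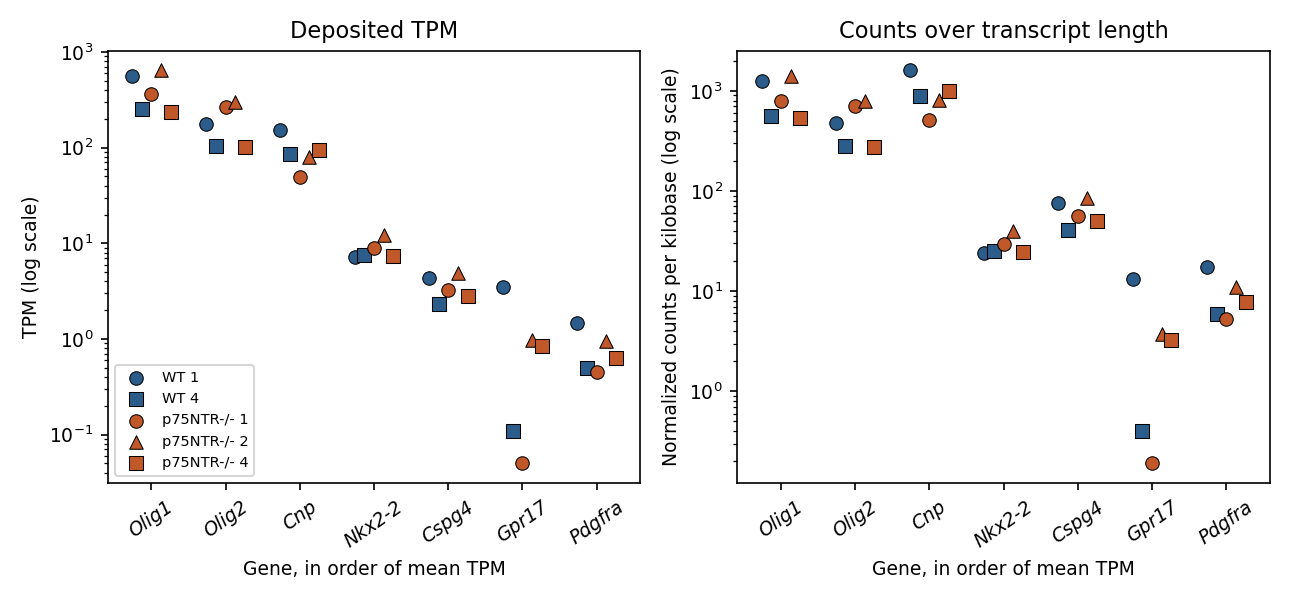
Levels of the 7 listed oligodendrocyte lineage genes, as TPM (left) and as normalized counts per kilobase of the longest listed transcript (right), both on log axes, with 1 point per library (blue, labelled WT; orange, labelled p75NTR-/-; the shape gives the replicate number). *Olig1* and *Olig2* lead in TPM with means of 411 and 188, whereas *Cnp* leads per kilobase with 960.

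The lineage factors came first in the comparison between libraries. *Olig1* (ENSMUST00000056882, GRCm38 chromosome 16 from 91269772 to 91271933, plus strand, 1 exon) had 2684 and 1219 normalized counts under the WT label and 1723, 3026 and 1153 under the p75NTR-/- label. The 2 libraries numbered 4 were the lowest, 1 of each label, and the labels overlapped. Between the labels *Olig1* had nearly equal means, 1952 ± 1036 (SD, n = 2) against 1967 ± 960 (SD, n = 3).

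*Olig2* (ENSMUST00000035608, chromosome 16 from 91225457 to 91228677, plus strand, 2 exons) lies 44315 bases before *Olig1*, start to start, on the same strand. It had 1210 and 704 normalized counts under the WT label and 1774, 1987 and 701 under the p75NTR-/- label. Again both libraries numbered 4 were the lowest, and they were close to each other, while the highest value belonged to replicate 2 labelled p75NTR-/-. The mean was 957 ± 358 (SD, n = 2) for WT as labelled and 1488 ± 689 (SD, n = 3) for p75NTR-/-. Although neighbours, the 2 Olig genes did not keep a fixed proportion. The ratio of *Olig1* to *Olig2* in normalized counts was 2.22 and 1.73 under the WT label and 0.971, 1.52 and 1.64 under the p75NTR-/- label. Replicate 1 labelled p75NTR-/- was the single library with more *Olig2* than *Olig1* counts. The libraries labelled WT were both above the other 3, but only by 1.73 against 1.64 at the nearest, and the ratio was not tested. Of all gene sums with a mean of at least 50, 14.7% likewise did not overlap between the labels.

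*Nkx2-2* (chromosome 2, minus strand) was read from 2 transcripts, ENSMUST00000067075 from 147183083 to 147186404 and ENSMUST00000109970 from 147177546 to 147186101. Their sum was 51 and 53 normalized counts under the WT label and 62.3, 84.1 and 51.8 under the p75NTR-/- label. It was the steadiest gene of the set, with replicate 2 labelled p75NTR-/- on top and the other 4 libraries near each other. These values rest on 49 to 70 counts, and the 95% exact Poisson interval of the highest library, 65.5 to 106 normalized counts, overlapped that of the lowest, 38.1 to 66.9. Such intervals cover counting error only.

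The surface genes of progenitors differed in level. *Pdgfra* (ENSMUST00000000476, chromosome 5 from 75152306 to 75198215, plus strand, 23 exons) had 113 and 38.5 normalized counts under the WT label and 34.6, 72.1 and 50.7 under the p75NTR-/- label. Replicate 1 labelled WT stood above the rest, and the labels overlapped. *Cspg4* (ENSMUST00000035661, chromosome 9 from 56865033 to 56899870, plus strand, 10 exons) had 619 and 328 normalized counts under the WT label and 455, 684 and 411 under the p75NTR-/- label. As for the Olig genes, both libraries numbered 4 were below the other 3.

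*Gpr17* (ENSMUST00000064016, chromosome 18 from 31942997 to 31949636, minus strand) had the widest spread. It had 68.7 and 2.08 normalized counts under the WT label and 0.99, 19.2 and 16.9 under the p75NTR-/- label, from 70, 2, 1, 16 and 16 counts. High and low libraries occurred under both labels and under both shared replicate numbers. Its mean of 21.6 normalized counts lies under the minimum of 50 that a call required.

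The myelin gene *Cnp* (ENSMUST00000103120, chromosome 11 from 100574904 to 100581728, plus strand, 4 exons) had 3769 and 2114 normalized counts under the WT label and 1204, 1897 and 2329 under the p75NTR-/- label. Replicate 1 labelled WT was the highest and replicate 1 labelled p75NTR-/- the lowest, so the libraries numbered 4 lay inside the range and not at its lower end. The mean was 2942 ± 1171 (SD, n = 2) for WT as labelled and 1810 ± 568 (SD, n = 3) for p75NTR-/-.

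**Figure D2:**
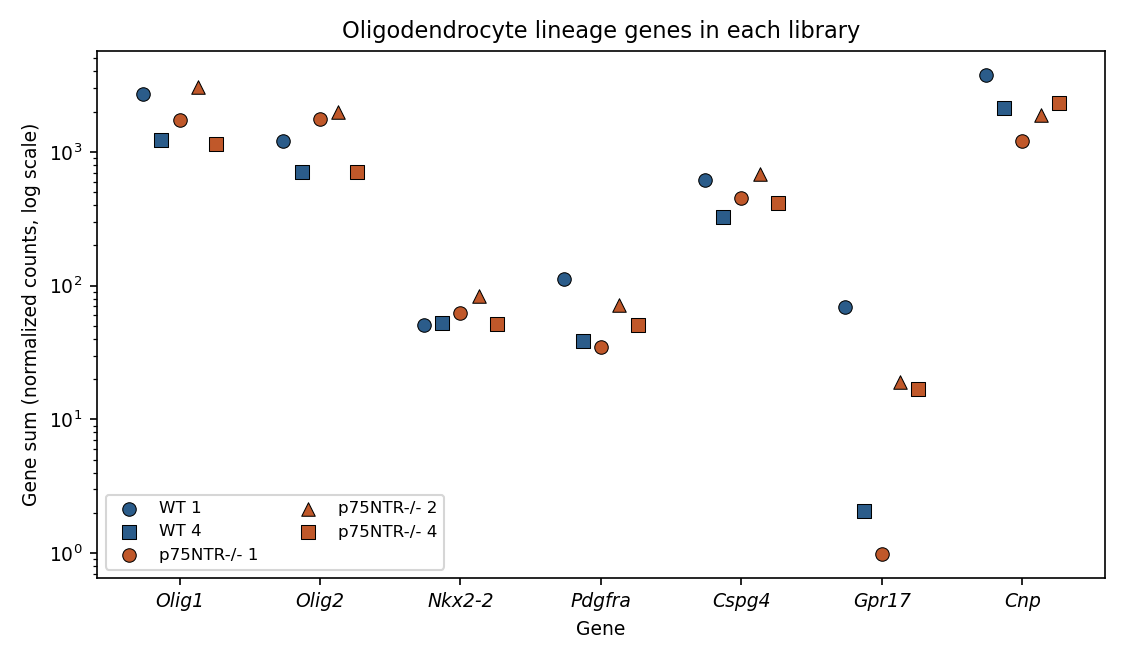
Gene sums of the 7 listed oligodendrocyte lineage genes in normalized counts (log axis), 1 point per library, coloured by label and shaped by replicate number. The squares (number 4) are the lowest points for *Olig1* at 1219 and 1153, *Olig2* at 704 and 701 and *Cspg4* at 328 and 411, but not for *Cnp* at 2114 and 2329.

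For 5 of these genes the libraries differed more than for most genes. The ratio of the highest to the lowest library was 3.26 for *Pdgfra*, 3.13 for *Cnp*, 2.83 for *Olig2*, 2.63 for *Olig1* and 2.09 for *Cspg4*, at the 93.9th, 93.2nd, 91.2nd, 89.5th and 79.5th percentiles of 10780 other genes with a mean of at least 50 normalized counts, whose median was 1.52. The *Pdgfra* ratio rests on 35 to 115 counts. *Nkx2-2*, at 1.65, lay near that median. The highest library was replicate 2 labelled p75NTR-/- for 4 of the 7 genes (*Olig1*, *Olig2*, *Nkx2-2* and *Cspg4*) and replicate 1 labelled WT for the other 3 (*Pdgfra*, *Gpr17* and *Cnp*). The transcription factors and *Cspg4* thus peaked in another library than *Pdgfra*, *Gpr17* and *Cnp*. In bulk RNA, fewer cells of a type and less RNA per cell cannot be told apart.

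The first comparison asked whether the genes differed between WT and p75NTR-/- NSPCs. None of the 7 listed genes passed the call between the labels in limma, and none had an unadjusted p under 0.05. A call required a mean of at least 50 normalized counts, a change of at least 1.5-fold and a Benjamini-Hochberg adjusted p under 0.05 over all genes. Of all 12588 gene sums 1 was called (0.00794%) and 2.08% had an unadjusted p under 0.05, and of all 22227 transcripts 3 were called (0.0135%), none of them from these genes. The labels overlapped for all 7 genes, of which 6 had a mean of at least 50. Of all genes with such a mean, 14.7% did not overlap, and 0 of 6 lies near that share.

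The sizes of the differences were uncertain in both directions. On the log2 scale of normalized counts plus 1, p75NTR-/- minus WT, *Olig1* differed by 0.01 ± 0.54 (SE, adjusted p = 1), with a 95% interval of -1.37 to 1.39. *Olig2* differed by 0.55 ± 0.54 (adjusted p = 0.93), with an interval of -0.84 to 1.95. These intervals leave room for a loss and for a gain of 1.5-fold. *Cnp* had the difference with the lowest p of the set, -0.69 ± 0.40 (adjusted p = 0.93), with an interval of -1.71 to 0.33. *Nkx2-2* had 0.31 ± 0.25 and *Cspg4* 0.16 ± 0.38, with adjusted p of 0.93 and 0.96. *Pdgfra* had -0.39 ± 0.55 and *Gpr17* -0.71 ± 1.69, with the same adjusted p of 0.93 and 0.96. In all, 4 of 7 differences were above 0 and 3 below. The median of the 6 genes with a mean of at least 50, which leaves out *Gpr17*, was 0.08, beside 0.02 over all genes with such a mean.

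Within a replicate number the difference between the labels changed sign for 6 of 7 genes. Among the libraries numbered 1, *Cnp* differed by -1.65 and *Pdgfra* by -1.68 on the log2 scale, p75NTR-/- minus WT, whereas among those numbered 4 the differences were 0.14 and 0.39. *Olig2* had 0.55 among those numbered 1 and -0.01 among those numbered 4, and *Nkx2-2* had 0.28 and -0.03. The change of sign of *Olig2* and *Nkx2-2* thus rests on nearly no difference among the libraries numbered 4. The share of all genes with a change of sign was not computed. *Gpr17* had -5.13 and 2.54, which rest on 1 and 2 counts in the lowest libraries. *Olig1* was the exception, with -0.64 and -0.08. With 1 library of each label per number these values have no replicate check. Leaving out 1 library also turned the sign for 4 genes. Without replicate 1 labelled WT the difference was 0.38 for *Pdgfra* and 1.54 for *Gpr17*, and without replicate 1 labelled p75NTR-/- that of *Gpr17* was 0.38. Without replicate 4 labelled WT, *Olig1* had -0.56 and *Cspg4* -0.30, and without replicate 2 labelled p75NTR-/- they had -0.36 and -0.06. The other 3 genes kept their sign but not their size, with ranges of 0.16 to 1.02 for *Olig2*, 0.12 to 0.47 for *Nkx2-2* and -1.11 to -0.28 for *Cnp* over the fits without 1 library. The lowest value came without replicate 4 labelled WT for *Olig2* and *Cnp* and without replicate 2 labelled p75NTR-/- for *Nkx2-2*, and the highest without replicate 4 labelled p75NTR-/- for *Olig2* and *Nkx2-2* and without replicate 1 labelled WT for *Cnp*.

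The second comparison took the libraries numbered 4 against those numbered 1, with the label as a second term, because the libraries numbered 4 were known from an earlier reading of these data to lie close to each other. The labels do not say what a number marks. Again 0 of 7 listed genes were called in limma, and 0 of 12588 gene sums were (0%), in a fit of 4 libraries with 1 residual degree of freedom. *Olig1* and *Olig2* were the 2 genes of the set with an unadjusted p under 0.05, which 11.3% of all gene sums had. The log2 difference, number 4 minus number 1, was -1.06 ± 0.27 (SE, adjusted p = 0.37) for *Olig2*, with a 95% interval of -1.84 to -0.27, and it was negative under both labels, at -0.78 and -1.34. That of *Olig1* was -0.86 ± 0.27 (adjusted p = 0.41), with an interval of -1.64 to -0.07, and was also negative under both labels, at -1.14 and -0.58.

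*Cspg4* had -0.53 ± 0.30 (adjusted p = 0.6) between the numbers and was negative under each label, at -0.92 and -0.15. The other genes did not keep a direction. *Cnp* had -0.83 under the WT label and 0.95 under the p75NTR-/- label, *Pdgfra* had -1.53 and 0.54, *Gpr17* had -4.50 and 3.17, and *Nkx2-2* had 0.05 and -0.26. Counted over all 5 libraries, both libraries numbered 4 were below the other 3 for 3 of the 6 genes with a mean of at least 50 (*Olig1*, *Olig2* and *Cspg4*), and above them for none. The corresponding shares of all such genes were 22.0% below and 23.0% above.

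In normalized counts, *Olig2* averaged 703 ± 1.97 (SD, n = 2) over the libraries numbered 4 and 1657 ± 402 (SD, n = 3) over the others, a ratio of 2.36 of the others to number 4. The corresponding ratio was 2.09 for *Olig1*, with 1186 ± 47.1 and 2478 ± 676, and 1.59 for *Cspg4*, with 369 ± 58.9 and 586 ± 118. With all 5 libraries in the fit, number 4 against the others, the log2 difference was -1.15 for *Olig2* (adjusted p = 0.12), -1.05 for *Olig1* (adjusted p = 0.19) and -0.64 for *Cspg4* (adjusted p = 0.28), while 32 gene sums were called in that fit. None of the 7 listed lineage genes was among these 32.

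**Figure D3:**
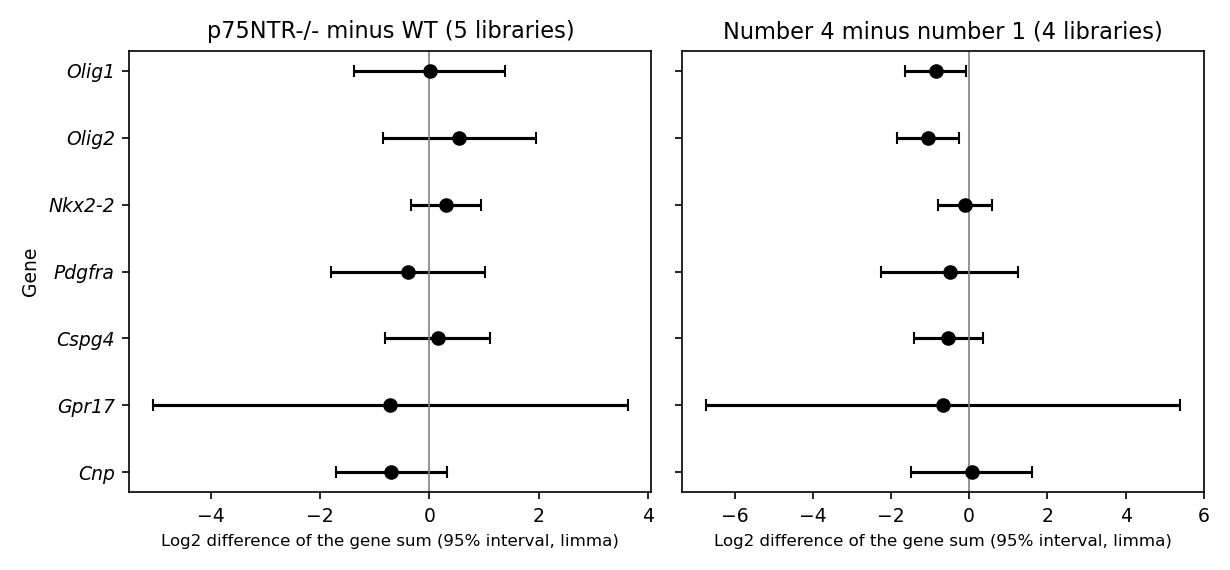
Log2 differences of the gene sums of the 7 listed genes with 95% intervals from limma, p75NTR-/- minus WT over 5 libraries (left) and number 4 minus number 1 over 4 libraries (right). Each interval on the left spans 0, and on the right those of *Olig1* (-1.64 to -0.07) and *Olig2* (-1.84 to -0.27) do not, with adjusted p of 0.41 and 0.37.

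Markers of other cell types were read for the same contrast between numbers. *Gfap*, the glial filament of astrocytes, had 241 and 680 normalized counts under the WT label and 11.9, 1.2 and 746 under the p75NTR-/- label, and was thus highest in both libraries numbered 4, where *Olig1* and *Olig2* were lowest. *Aqp4*, a water channel of astrocytes, was likewise highest there, with 696 and 566. The other 5 of the 7 astrocyte markers, all of which were listed, did not separate the numbers, and *S100b* had a log2 difference of -1.12, number 4 minus number 1. In all, 2 of 7 were above and 0 below the other 3 libraries in both libraries numbered 4, beside 23.0% and 22.0% of all genes with a mean of at least 50. The summed level of the astrocyte list was 1768 and 1857 TPM there against 1220 to 2577 TPM in the others. Between the labels, all 7 astrocyte markers were lower under p75NTR-/-, with a median log2 difference of -0.83 and 0 calls. Among the libraries numbered 1 these differences ran from -4.23 for *Gfap* to -0.30 for *Slc1a3*. Among those numbered 4 they were above 0 for *Gfap*, *Aldh1l1*, *S100b* and *Gja1*, at 0.05 to 0.24. *Aqp4*, *Aldoc* and *Slc1a3* had -0.30, -0.09 and -0.08 there. The summed neuronal markers did not overlap between the libraries numbered 4, with 49.6 and 48.9 TPM, and the others, with 17.4 to 31.7 TPM. *Gad1*, which encodes a GABA-synthesizing enzyme, had 1404 and 1483 normalized counts in the libraries numbered 4 and 293 to 665 in the others. It made up most of that sum, with 38.8 and 40 TPM in the libraries numbered 4. For *Tubb3* and *Dlx2*, the other listed neuronal markers, the libraries numbered 4 overlapped the others, with log2 differences of 0.02 and 0.82. Of the 6 progenitor markers, the filament gene *Vim* was also highest in the libraries numbered 4, with a log2 difference of 0.94. *Hes5* was lowest there, with a log2 difference of -2.44, and the median over the progenitor list was -0.02. None of these markers was called. The part of these markers in the difference of the Olig genes was not tested. The recovered totals of the libraries numbered 4, 13982065 and 13876164 counts, lay within the range of the others.

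The cells were checked against the markers of other types. All 6 progenitor markers were listed, led by *Fabp7*, with a summed level of 7440 to 8874 TPM. Neuronal markers were partly listed, with 3 of 6 and a sum of 17.4 to 49.6 TPM, and *Dcx*, *Stmn2* and *Rbfox3* had no line. For Schwann and neural crest cells, which share *Sox10* and *Mbp* with oligodendrocytes, 2 of 6 markers were listed at a sum of 3.3 to 5.89 TPM. *Foxd3* and *Erbb3* were among those without a line. *Pdgfra* is also a gene of fibroblasts and *Cspg4* of mural cells. Of 5 fibroblast markers 1 was listed, *Col1a1*, at 0.17 to 0.55 TPM, and of 6 mural markers 2 were, *Acta2* and *Tagln*, at a sum of 2.68 to 14 TPM, without *Pdgfrb* and *Rgs5*. Of 6 microglial markers 0 were listed, and of 5 endothelial markers 1 was, *Kdr*, at 0.39 to 0.66 TPM.

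The wider lineage was read from 60 more genes in 6 lists, of which 42 were listed and 32 had a mean of at least 50 normalized counts. None was called between the labels or between the numbers in limma, and 1 and 6 of the 42 had an unadjusted p under 0.05, beside 2.08% and 11.3% of all gene sums. Of the 42, 16 were higher and 26 lower under the p75NTR-/- label. Among the 32 with a mean of at least 50, both libraries numbered 4 were below the other 3 for 8 genes and above them for 5, beside 22.0% and 23.0% of all such genes. The median log2 difference of the 32 was -0.16 between the labels and -0.20 between the numbers.

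Among 13 specification and differentiation factors, 11 were listed, with *Sox8*, *Sox9* and *Sox6* among the highest in TPM. *Sox8*, a relative of *Sox10* of the same SoxE group, had 2538 and 1054 normalized counts under the WT label and 1064, 2019 and 1153 under the p75NTR-/- label. It was high in the same 2 libraries in which *Olig1* was highest. *Sox9*, the third SoxE gene, took another order, with 733 and 963 in the libraries numbered 4 above 333 to 614 in the others. *Myrf*, which drives myelin genes, had 0 counts in 2 libraries, a count that allows up to 3 counts or 3.12 normalized counts, and at most 25.5 normalized counts in the rest.

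Of 11 progenitor surface and matrix genes 9 were listed, and 8 of these were lower under the p75NTR-/- label without passing the test. The leading *Ptprz1*, *Bcan*, *Cspg5* and *Ncan* had mean levels of 420, 332, 213 and 171 TPM. They encode proteins of the surface and matrix of neural progenitors and astrocytes as well as of oligodendrocyte progenitors. They were thus far above *Pdgfra* and *Cspg4* on the same TPM scale. Among the libraries numbered 1, *Ptprz1*, *Bcan*, *Cspg5* and *Ncan* differed between the labels by -0.32, -0.58, -0.56 and -0.73 on the log2 scale. Among those numbered 4 they differed by 0.12, 0.11, 0.16 and 0.17.

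The premyelinating list had 4 of 6 genes listed, *Fyn*, *Tns3*, *Bcas1* and *Itpr2*, and all 4 were higher under the p75NTR-/- label, with a median log2 difference of 0.12 and 0 calls. *Bcas1* had 145 and 155 normalized counts under the WT label and 154, 292 and 356 under the p75NTR-/- label, so the labels overlapped. Of 15 further genes of myelin and mature oligodendrocytes only 6 were listed, and *Mag*, *Mog* and *Mobp* were among the 9 without a line. The leading *Aspa*, which encodes an acetylaspartate-cleaving enzyme, had 266 and 27.1 normalized counts under the WT label and 142, 88.9 and 50.7 under the p75NTR-/- label. Both libraries numbered 4 were the lowest, with a log2 difference between the numbers of -2.36 ± 0.53 (SE, adjusted p = 0.33). *Opalin* and *Mal* stayed at or under 24 normalized counts.

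Of the PDGF ligands and other receptors 3 of 6 were listed. *Pdgfa*, the ligand of the receptor encoded by *Pdgfra*, had 65.8 and 190 normalized counts under the WT label and 81.1, 81.7 and 170 under the p75NTR-/- label. It was highest in both libraries numbered 4, where *Olig1* and *Olig2* were lowest, with a log2 difference between the numbers of 1.29 ± 0.25 (SE, adjusted p = 0.3). *Pdgfc* and *Pdgfrl* had means of 4.05 and 1.35 TPM.

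All 9 genes of the list of Olig partners and inhibitors were listed. The E proteins, with which Olig factors form dimers, varied by at most 1.44-fold between libraries. *Tcf12* had between 6531 and 6629 normalized counts in all 5 libraries and *Tcf4* between 3833 and 5518. The lowest *Tcf4* values, 3833 and 3935, came from the libraries numbered 4. The Id proteins, which take E proteins away from such dimers, varied more. *Id3* had 613 and 251 normalized counts under the WT label and 692, 1112 and 248 under the p75NTR-/- label, which is the order of *Olig2* over libraries, with a log2 difference between the numbers of -1.38 ± 0.23 (SE, adjusted p = 0.26). *Id2* did not follow it, with 1176 and 805 against 258, 466 and 910.

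**Figure D4:**
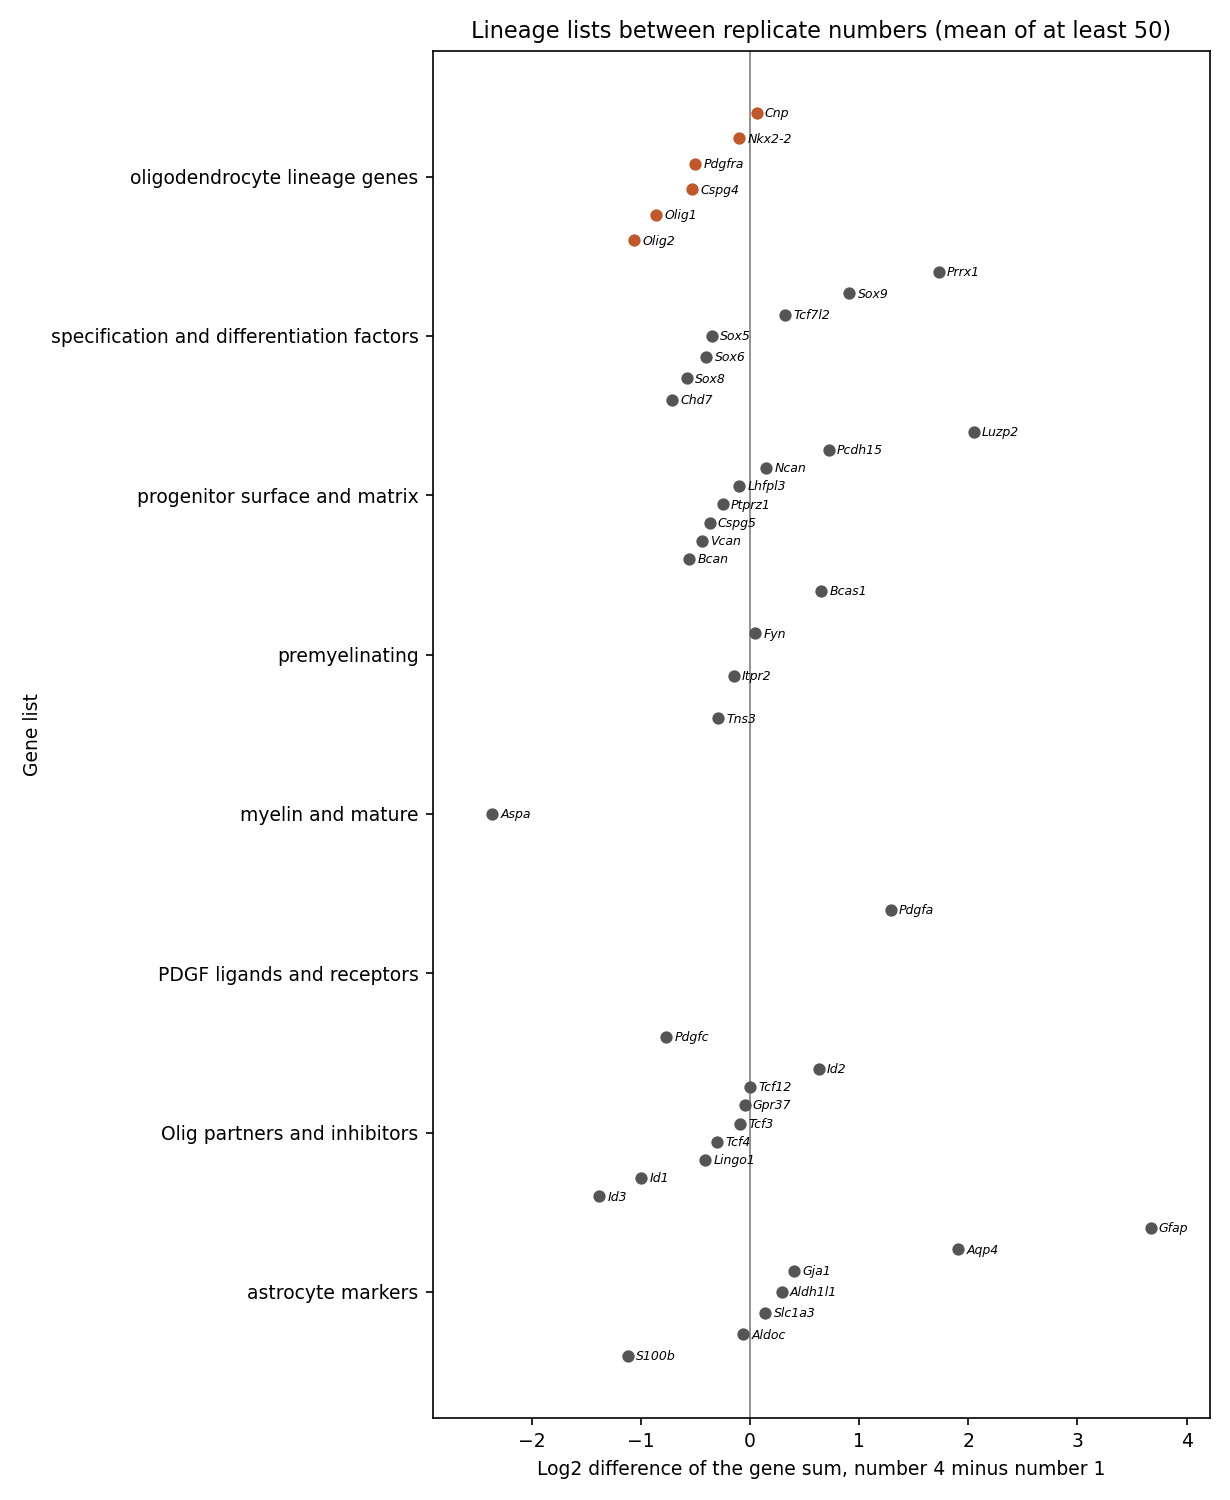
Log2 differences between the libraries numbered 4 and those numbered 1 (x axis) for the oligodendrocyte lineage genes (orange) and the genes of the other lists (grey) with a mean of at least 50 normalized counts, 1 point per gene shown, grouped by list and ordered by size within it. *Olig2* at -1.06 and *Id3* at -1.38 lie to the left, and *Pdgfa* at 1.29 and *Gfap* at 3.67 to the right, and none of these was called.

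The genes most like *Cnp*, the gene of the set with the highest gene sum, were read from the root mean square difference of centred log2 profiles over the 5 libraries, among 10785 genes with a mean of at least 50. They were *Rnf144a* (0.07), *Ppm1k* (0.076), *Mapt* (0.089), *Tmcc3* (0.1) and *Lrp1* (0.11). For *Olig2*, the gene with the largest difference between the numbers among those with a mean of at least 50, they were *Mvk* (0.048), *Fmnl3* (0.074), *Dgcr8* (0.1), *Aacs* (0.12) and *Crip2* (0.12). No oligodendrocyte lineage gene was among them. Within the set the closest pair was *Olig1* and *Cspg4* with a difference of 0.24, at rank 64 of the genes closest to *Olig1*. *Olig1* and *Olig2* differed by 0.39, at rank 802 from *Olig1*, and *Pdgfra* and *Cnp* by 0.37, at rank 284 from *Pdgfra*. *Olig2* and *Cnp* were the farthest pair of the 6 genes, with 0.98. With 5 libraries, many genes share any order of values, so these ranks describe the libraries only.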

How the data were processed

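The deposited table of the whole series lists transcripts. Per the labels and the methods, the authors used Salmon 0.10.2 with the GRCm38.p6 Ensembl transcriptome, tximport and DESeq2 1.22.0. The deposited signal of a library is a count divided by its size factor, plus 0.5, and the authors' TPM columns are a second signal. The authors' baseMean, a score, averages normalized counts over more than these libraries. The deposited log2 fold change and p-value columns hold the authors' own comparison and were not used. No per-sample column was left unused (0).

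The 303 repeated lines were dropped, 0.5 was subtracted, and counts were recovered by dividing by the step of each library (100% whole within 0.1 steps). Coordinates came from GENCODE for 22199 transcripts. Gene sums add the listed transcripts of a symbol. limma 3.58.1 in R 4.3.3 (lmFit, eBayes) was run on log2(normalized count + 1), a scale that understates changes of low genes, over all features with Benjamini-Hochberg adjustment, and was tested on simulated data. pandas 2.3.3 and numpy 2.4.6 did the rest. The design was written for normalized values and no covariate between the labels. The p-values measure only the spread between these libraries, since the labels name no separate cultures, although the study describes independent preparations of cells.

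The genes, the lists, the comparison of the numbers and the rule for named genes were chosen with earlier results of these data known. The rule names all 9 genes, called genes and the 4 highest in mean TPM of each further list, and the 5 genes most like the member with the highest gene sum and the member with the largest difference between numbers. *Myrf*, *Gfap*, *Aqp4*, *S100b* and *Hes5* were named after their values were seen. Some genes that the rule names are not reported here.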

Additional observations from a re-analysis of the deposited data

How the results depend on the processing

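Between the labels, 67 of 76 alternative values of the single genes kept their direction and 9 were reversed, and none passed the threshold (lowest adjusted p 0.4). Between the numbers 27 of 28 kept it and 1 was reversed (lowest adjusted p 0.12). The called transcripts, 3, became 0 with a pseudocount of 5, 0 with a variance trend in eBayes (chosen after seeing the data) and 31 with no minimum of the mean, and were 0 to 0 without single libraries (a lone WT library is then assumed to vary like the others). The called gene sum, 1, ranged from 0 to 1 without single libraries. The genes higher under the p75NTR-/- label, 4, ranged from 2 to 6 without single libraries, whose lowest and highest log2 differences were -0.56 and 0.58 for *Olig1*, -1.15 and 0.38 for *Pdgfra*, -0.30 and 0.62 for *Cspg4*, and -2.96 and 1.54 for *Gpr17*. With all 5 libraries in the comparison of the numbers, called gene sums went from 0 to 32, genes of the set above 0 went from 1 to 0, and *Cnp* turned to -0.00105. With normalized counts per kilobase 0 of 7 genes kept their TPM rank. The causes were not tested.

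With the replicate number as a block in the 4 libraries numbered 1 and 4, called transcripts were 0, called gene sums 0, genes of the set higher under the p75NTR-/- label 2, *Olig1* -0.36 and *Cspg4* -0.059, and no other direction changed. The labels do not say that a number pairs libraries, and deviations from the label means correlated with r = 0.26 for number 1 and 0.48 for number 4 over 10786 genes.

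The planned edgeR and DESeq2 fits were not run, because the deposited columns are normalized values with an offset. Counts recovered from them served only for depth and counting intervals. The comparison of the numbers could not be fitted without a library, since no residual freedom is left, and *Gpr17* gives no value when only genes with a mean of at least 50 are tested. At 11688211 to 14452396 counts per library, the counting intervals of the highest and the lowest library overlapped for *Nkx2-2* but not for *Pdgfra* or *Gpr17*.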
